A study of Mus musculus with 3 samples.

Results

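*Cxcl9*, *Cxcl10*, *Cxcl11* and *Cxcl16* are chemokine genes, and they were followed in murine bone marrow-derived macrophages (BMDMs) treated with purified lipoproteins of *Borrelia burgdorferi* (*Bb*LP). The 4 genes were chosen by name, as rows of the gene table, and 3 of the 4 have a row among its 32285 genes. *Cxcl11* (ENSMUSG00000060183) matched no row and was not analysed here. The macrophages were grown for about a week from bone marrow of female C3H/HeN mice aged 6 to 8 weeks. The study's culture methods describe pooled marrow. Its single-cell methods describe macrophages of 3 mice, treated independently, with the cells of 3 wells pooled for each library. The control cells (Ctrl, called UI in the labels) received PBS and, by the study's methods, were collected at 4 hours. LP1 cells were given *Bb*LP at 1 µg/mL and collected after 1 hour. LP4 cells were given the same dose and collected after 4 hours. Ctrl is thus matched in time to LP4 but not to LP1. RNA of single cells was measured with a droplet-based 3′ kit, in which every captured transcript carries a cell barcode and its own molecular identifier (UMI). There is 1 library per condition, so no difference between conditions was tested. All intervals given are 95% intervals that cover counting error only.

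CXCL9, CXCL10 and CXCL11 are ligands of CXCR3, a receptor on activated T and NK cells, and their genes are classical targets of interferon signaling through STAT and IRF factors. CXCL16 is made as a membrane-anchored protein with a chemokine head that binds CXCR6, takes up oxidized lipoprotein as a scavenger receptor, and is released when ADAM10 or ADAM17 cuts its stalk. In macrophages, CXCL10 is also known as a product of the interferon beta loop that follows Toll-like receptor signaling.

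On mouse GRCm38 (GENCODE vM21), *Cxcl9* (ENSMUSG00000029417) lies on the minus strand of chromosome 5 from 92321347 to 92328079, and *Cxcl10* (ENSMUSG00000034855) on the same strand from 92346638 to 92348889. The space between them is 18558 bases, and *Cxcl11* follows at 92359544 to 92365485, 10654 bases beyond *Cxcl10*. *Cxcl11* is annotated there as a polymorphic pseudogene, and its lack of a row says nothing on its expression in these cells. *Cxcl16* (ENSMUSG00000018920) lies apart, on the minus strand of chromosome 11 from 70453983 to 70459984. *Art3*, on the plus strand of chromosome 5, spans *Cxcl10* and *Cxcl11*. On the plus strand of chromosome 11, *Zmynd15* (70459433 to 70466202) overlaps only the 5′ end of *Cxcl16*. *Zmynd15* had 120, 133 and 319 UMIs in Ctrl, LP1 and LP4. *Art3* itself had 15, 29 and 443 UMIs in Ctrl, LP1 and LP4 and so moved with *Cxcl10* on the other strand, which had 56626 UMIs in LP4. Whether antisense reads link the 2 counts was not tested.

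The 250 bases before the starts of the neighboring genes *Cxcl9* and *Cxcl10* are shown because their levels in LP4 were far apart. The sequences are those of RefSeq on GRCm38.p6, which is the genome of another strain than C3H/HeN. They are written 5′ to 3′ on the minus strand, *Cxcl9* at chr5:92328080-92328329 and *Cxcl10* at chr5:92348890-92349139, and capitals mark matches to 3 motifs searched on both strands.
Cxcl9: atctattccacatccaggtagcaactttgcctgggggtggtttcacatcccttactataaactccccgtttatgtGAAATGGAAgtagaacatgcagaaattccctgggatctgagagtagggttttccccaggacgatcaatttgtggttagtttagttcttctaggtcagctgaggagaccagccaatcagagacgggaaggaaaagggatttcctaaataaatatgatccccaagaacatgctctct
Cxcl10: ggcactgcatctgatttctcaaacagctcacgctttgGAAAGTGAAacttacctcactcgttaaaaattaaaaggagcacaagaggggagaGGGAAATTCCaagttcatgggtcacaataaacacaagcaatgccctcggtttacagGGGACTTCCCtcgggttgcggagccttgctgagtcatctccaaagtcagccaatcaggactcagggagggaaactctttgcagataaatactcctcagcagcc
The motifs were the core of the interferon-stimulated response element (ISRE, GAAANNGAA), the gamma-activated site (GAS, TTCNNNGAA) and the NF-kB consensus. Both windows hold 1 ISRE core match, at -175 to -167 from the *Cxcl9* start and at -213 to -205 from the *Cxcl10* start. The *Cxcl10* window also holds 2 NF-kB consensus matches, at -159 to -150 and -103 to -94, and no exact match was found in the *Cxcl9* window; sequences that differ from the consensus by a letter were not counted. The letters of the GAS motif are in neither window. Among 32851 promoter windows of the same length, 7.13% hold an ISRE core match, 7.02% a GAS match and 3.90% an NF-kB match. A match describes the letters only and says nothing on which factor was bound in these cells.

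The analysis rests on 6071 Ctrl, 5065 LP1 and 4670 LP4 cells left by the limits the study states (over 500 UMIs and over 500 genes, less than 5% of UMIs mitochondrial), a larger set than the study describes after its own filtering. They hold 35688939, 52475723 and 61402275 UMIs, with medians per cell of 5133, 9343 and 11784. Levels are UMIs per 1000000 UMIs of the library (CPM), and since the 3′ kit counts 1 tag per transcript they need no length correction. All 9 macrophage markers had UMIs in each library, summing to 10542 to 11689 CPM, while T and NK cell markers summed to at most 0.210 CPM, with *Cd3e*, *Ncr1* and *Gzma* at 0 in all 3 libraries. Between 11 and 17 barcodes of a library also occur in another. The limits left out 369 LP4 barcodes beside 52 in Ctrl and 54 in LP1, and *Cxcl10* was at 684 CPM and *Cxcl16* at 304 CPM in those 369.

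*Cxcl10* was much higher in LP4 than in Ctrl and LP1, *Cxcl16* was about double, and *Cxcl9* stayed near the limit of detection. *Cxcl10* had 716 UMIs in Ctrl (20.1 CPM, 18.6 to 21.6), 1043 in LP1 (19.9 CPM, 18.7 to 21.1) and 56626 in LP4 (922 CPM, 915 to 930). The Ctrl and LP1 intervals overlap, and LP4 stands 46.0-fold above Ctrl, a log2 ratio of 5.52 (5.42 to 5.63). *Cxcl16* had 5313 UMIs in Ctrl (149 CPM, 145 to 153), 7191 in LP1 (137 CPM, 134 to 140) and 20614 in LP4 (336 CPM, 331 to 340). Its log2 ratio of LP4 to Ctrl was 1.17 (1.13 to 1.22), a 2.26-fold difference. *Cxcl9* had 4, 0 and 135 UMIs in Ctrl, LP1 and LP4, or 0.112 CPM (0.0305 to 0.287), 0 CPM and 2.20 CPM (1.84 to 2.60). The *Cxcl9* log2 ratio of LP4 to Ctrl was 4.29, with a wide interval of 2.90 to 6.19. With the 0 of LP1 set to a floor of 3 counts, LP4 was 38.5-fold above LP1. That value depends on the floor, has no interval and is not a lower limit.

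**Figure D1:**
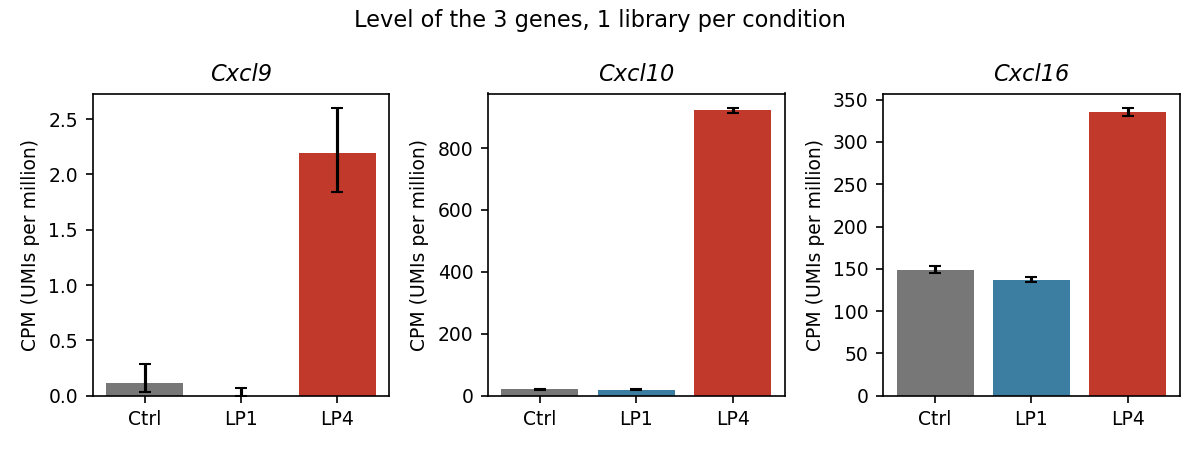
Level of *Cxcl9*, *Cxcl10* and *Cxcl16* in CPM in Ctrl, LP1 and LP4, 1 library each; bars are the summed level, lines the exact Poisson 95% interval, and each panel has its own axis from 0. LP4 is the highest library in each panel, at 2.20, 922 and 336 CPM.

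Genes with at least 10 CPM in a library give the background of these ratios. Of 8103 such genes, 10.5% were at least 2-fold higher in LP4 than in Ctrl and 9.95% at least 2-fold lower, while the shares between LP1 and Ctrl were 0.765% higher and 0.506% lower. *Cxcl10* and *Cxcl16* are both among the genes at least 2-fold higher in LP4, at ranks 13 and 654 of the 8103, whose median log2 ratio was -0.08. A median-of-ratios scaling moves that median by 0.21, and the ratios of the 2 genes move with it. *Cxcl9* stayed under 10 CPM and is not among the 8103. The log2 ratio of LP1 to Ctrl was -0.01 for *Cxcl10* (-0.15 to 0.13) and -0.12 for *Cxcl16* (-0.17 to -0.07), well within 2-fold. The 3 comparisons share libraries with each other. The log2 ratio of LP4 to LP1 was 5.54 for *Cxcl10* (5.45 to 5.63) and 1.29 for *Cxcl16* (1.25 to 1.33), in a comparison where 8.59% of genes were at least 2-fold higher and 7.75% lower.

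*Cxcl10* and *Cxcl16* were spread over the LP4 cells in different ways. To compare cells of unequal depth, 2000 UMIs were drawn at random from each cell, leaving aside the 122 Ctrl, 13 LP1 and 45 LP4 cells with fewer. *Cxcl10* was then seen in 2.67% of the Ctrl, 2.36% of the LP1 and 50.3% of the LP4 cells (48.8 to 51.7), and without this thinning in 4.65%, 4.60% and 69.5%. *Cxcl16* was seen in 26.6%, 24.9% and 50.01% (48.6 to 51.5) of the thinned cells, and in 52.4%, 67.3% and 94.1% without thinning. In LP4 the shares of the 2 genes thus met at 2000 UMIs, although *Cxcl10* had the higher level. The order of these shares depends on the depth. At 1000 UMIs per cell *Cxcl10* was seen in more LP4 cells than *Cxcl16*, 39.9% against 29.7%, and at 4000 UMIs in fewer, 59.6% against 71.4%. *Cxcl9* was seen in 2 Ctrl, 0 LP1 and 20 LP4 cells without thinning. The exact interval for the 0 of 5065 LP1 cells reaches 0.0728% of cells with a UMI, which is no limit on cells that express the gene.

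Neutrophil-like cells, a small cluster of the same culture, were set beside these shares as cells of another type that could show RNA shared between droplets. The cluster was named from *S100a8*, *S100a9*, *Ngp* and *Camp*, and *Mpo* and *Elane* were also among its leading genes. *Lcn2* was in 96.5% of its cells and *Ltf* in 44.7%. *Retnlg*, *Ly6g*, *Cxcr2* and *Mmp8* were in 9.41%, 11.8%, 16.5% and 22.4%. *Mki67*, a cell division marker, was in 62.4%, and the maturity of these cells was not tested. After thinning, 1 of 21 Ctrl, 0 of 21 LP1 and 0 of 28 LP4 neutrophil-like cells held a *Cxcl16* UMI, below the share over all cells in each library. *Cxcl10* was seen in 3 of 21 (14.3%), 5 of 21 (23.8%) and 5 of 28 (17.9%), with median depths of 3947, 6261 and 9262 UMIs before thinning. Their *Cxcl10* level, 163 CPM in Ctrl and 142 CPM in LP1, was above that of the whole libraries (20.1 and 19.9 CPM), so in these 2 libraries they are no measure of shared RNA for *Cxcl10*. In LP4 their level was 154 CPM (109 to 213), below the 922 CPM of the library, and what part of it is shared RNA was not tested. In cluster C, described with the other clusters, 0.821% of Ctrl cells held a *Cxcl10* UMI without thinning, beside 8.51% in cluster A, and what part of these low shares is shared RNA was not tested.

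The number of UMIs per cell shows the difference more fully. At 2000 UMIs, *Cxcl10* was at 0 in 49.7% of LP4 cells, where a Poisson distribution of the same mean gives 15.7%, and 3.03% of cells held 10 or more of its UMIs. The tenth of LP4 cells richest in *Cxcl10* held 49.1% of its UMIs, and its Fano factor (variance over mean, 1 for Poisson counts) was 4.88. At this depth *Cxcl16* stayed close to Poisson counts, with 49.99% of cells at 0 where 47.2% are given by its mean, a Fano factor of 1.15 and no LP4 cell with 10 or more UMIs. Among reference genes, the Fano factor was 3.77 for *Ifit1* and 2.02 for *Isg15*, antiviral proteins of the interferon response, 4.22 for *Ccl5*, which draws T cells, and 12.8 for *Cxcl2*, which draws neutrophils. Mean UMIs per thinned LP4 cell were 1.85 for *Cxcl10*, 0.750 for *Cxcl16*, 4.18 for *Ifit1* and 1.48 for *Isg15*. They were 0.685 for *Ccl5* and 3.44 for *Cxcl2*, and the Fano factors were not corrected for the mean. At their own depth, the median LP4 cell held 4 UMIs of each of *Cxcl10* and *Cxcl16*, but the cell highest in *Cxcl10* held 153 and the cell highest in *Cxcl16* held 25.

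**Figure D2:**
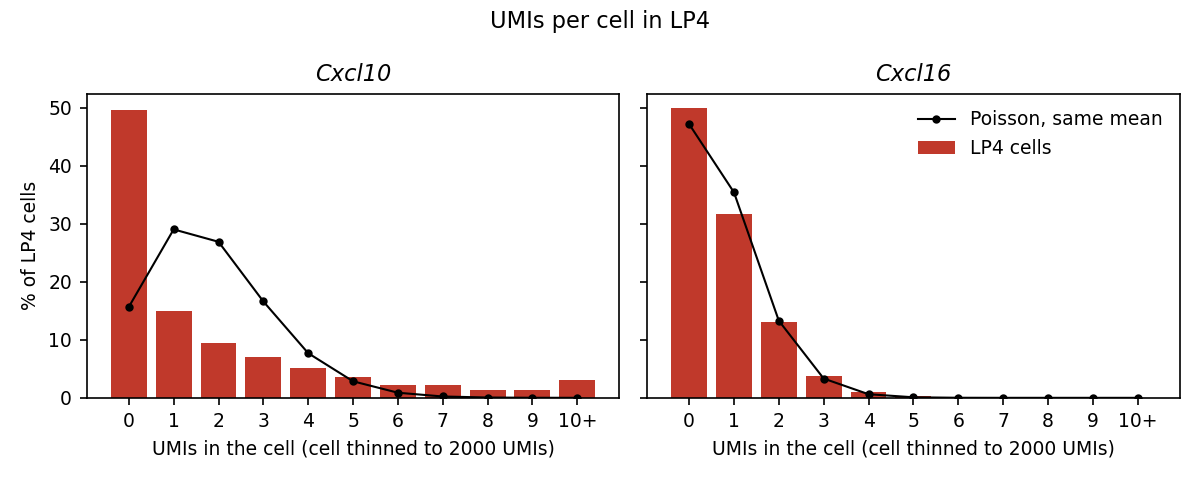
Share of 4625 LP4 cells, in percent, by the number of *Cxcl10* (left) or *Cxcl16* (right) UMIs in the cell after thinning to 2000 UMIs per cell; bars are measured shares, points and line the Poisson shares for the same mean. Measured *Cxcl10* has more cells at 0 (49.7% against 15.7%) and a longer tail, while *Cxcl16* is near the line.

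In Ctrl and LP1, where *Cxcl10* was low, few cells carried it. The top 1% of Ctrl cells held 58.4% of its 716 UMIs and the top 1% of LP1 cells 66.3% of 1043, beside 8.51% in LP4. Without the top 1% of cells of each library, the *Cxcl10* log2 ratio of LP4 to Ctrl was 6.67 instead of 5.52, and that of LP1 to Ctrl -0.32 instead of -0.01. *Cxcl16* was less concentrated, with 6.57%, 5.52% and 3.65% of its UMIs in the top 1% of Ctrl, LP1 and LP4 cells, and its LP4 to Ctrl ratio was 1.22 without them.

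Within LP4, *Cxcl10* was found more often in cells with interferon-induced genes, and for *Cxcl16* the differences were small. *Cxcl10* was seen in 55.2% of the 3960 LP4 cells with an *Ifit1* UMI (53.6 to 56.7) and in 21.4% of those without (18.3 to 24.7). The cells with *Ifit1* in Ctrl and LP1 were few, and there too *Cxcl10* was more frequent in them, 14.2% against 2.02% in Ctrl and 18.4% against 1.63% in LP1. The share of LP4 cells with *Cxcl10* was 62.1% with *Ccl5* and 46.3% without, and 47.4% with *Cxcl2* and 55.8% without. *Cxcl16* was seen in 50.1% of LP4 cells with *Ifit1* and 49.5% without, in 51.7% with *Isg15* (49.9 to 53.5) and 46.6% without (44.0 to 49.1), and in 52.7% with *Ccl5* and 49.1% without. Between the 2 chemokines themselves no link was seen in LP4, since *Cxcl10* was in 50.6% of cells with *Cxcl16* and in 49.96% of cells without, and the Pearson r over 4625 thinned cells was 0.02.

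Interferon beta (*Ifnb1*), the cytokine that starts the loop, was rare, with 2, 10 and 96 UMIs in Ctrl, LP1 and LP4. *Ifng*, which encodes interferon gamma, the usual inducer of *Cxcl9*, had 0, 1 and 1 UMI, and *Ifna4* had 0 in every library. Of the 15 thinned LP4 cells with an *Ifnb1* UMI, 12 held *Cxcl10* (80.0%, 51.9 to 95.7), beside 50.2% of the others. Their *Cxcl10* level was 2567 CPM against 921 CPM in the rest, in a group too small to place more closely.

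Ranking LP4 cells by a score gave the same contrast. The interferon score summed the UMIs of *Ifit1*, *Ifit2*, *Ifit3*, *Isg15*, *Rsad2*, *Oasl1*, *Cmpk2*, *Irf7* and *Usp18*. *Mx1*, also listed, had no row. Levels of the summed genes in LP4 ran from 134 CPM (*Irf7*) to 4995 CPM (*Rsad2*), so *Rsad2* weighs most. *Ifit1* and *Isg15*, used above to divide the cells, are part of the score. Over 5 bins of 925 cells each, from the lowest score to the highest, *Cxcl10* was at 210, 425, 749, 1132 and 2115 CPM, a log2 ratio of highest to lowest of 3.33 (3.18 to 3.49). *Cxcl16* was at 368, 341, 350, 386 and 431 CPM over the same bins, a log2 ratio of 0.23 (0.08 to 0.38). The NF-kB score summed the UMIs of 10 targets, *Cxcl1*, *Cxcl2*, *Cxcl3*, *Il1b*, *Tnf*, *Nfkbia*, *Nfkbiz*, *Tnfaip3*, *Il1a* and *Ptgs2*. Their levels in LP4 ran from 280 CPM (*Tnf*) to 1489 CPM (*Cxcl2*), so the sum weighs the abundant ones most. Over its 5 bins *Cxcl10* was at 1017, 976, 1066, 861 and 712 CPM and *Cxcl16* at 306, 366, 404, 385 and 415 CPM. *Cxcl10* was lowest and *Cxcl16* highest in the bin with the highest NF-kB score, with log2 ratios of -0.51 (-0.62 to -0.41) and 0.44 (0.28 to 0.60). The cells are of 1 library, so the intervals do not describe cultures.

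**Figure D3:**
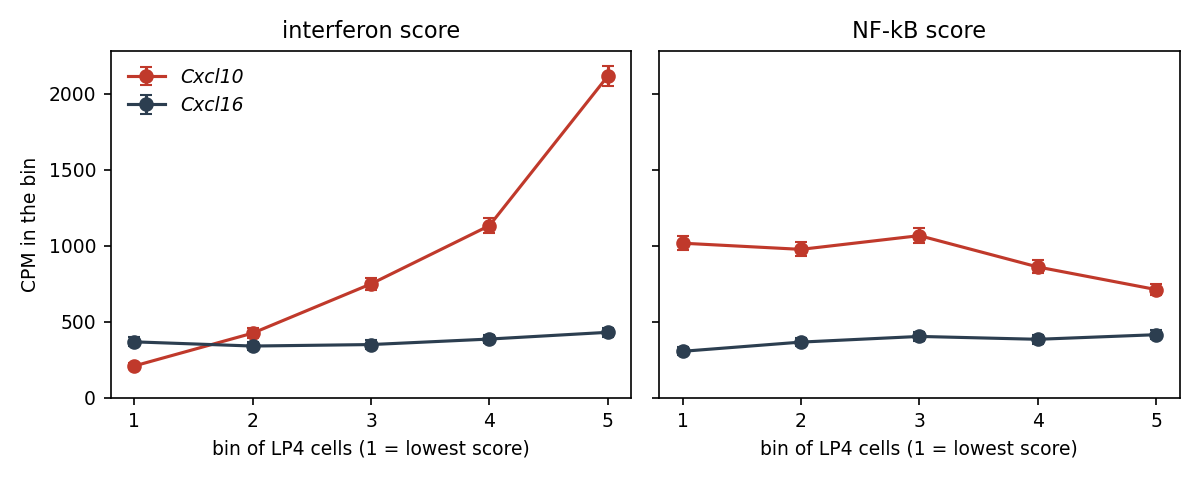
Level of *Cxcl10* and *Cxcl16* in CPM in 5 bins of the LP4 cells, from lowest (1) to highest (5) interferon score (left) or NF-kB score (right), cells thinned to 2000 UMIs; points are summed levels of 925 cells and lines exact Poisson 95% intervals. *Cxcl10* goes from 210 to 2115 CPM with the interferon score, while *Cxcl16* lies between 306 and 431 CPM in both panels.

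The genes most like each chemokine were sought among 3090 candidates of at least 50 CPM over the 4670 LP4 cells, by Pearson correlation of log-scaled levels. For *Cxcl10* they were *Ifit1* (r = 0.50), *Cmpk2* (0.48), *Rsad2* (0.47), *Ifit3* (0.40) and *Ifit2* (0.40), all of them genes of the interferon score. For *Cxcl16* they were *Sdc4* (0.25), a cell-surface proteoglycan, *Marcks* (0.24), *Cd14* (0.23), a co-receptor of Toll-like receptors, *Socs3* (0.20) and *Selenop* (0.20). All these cells share 1 library, and depth differs between them. Over 18 sums of 6 clusters in 3 libraries, where the points mainly divide by library, *Cxcl10* was most like *Il15*, *Pml* and *Vcan* (0.98 each) and *Cxcl16* most like *Atxn7l1* (0.98), *Sp140* (0.98) and *Mndal* (0.97). The genes most like *Cxcl9* were *Acot9* (0.90), *Mmp13* (0.88) and *Fez2* (0.87). These values rest on very few UMIs, since *Cxcl9* had 0 in every LP1 sum, 0 or 2 in the Ctrl sums and 2 to 18 in the LP4 sums. The sums also leave out the stromal-like cells described below, which held 93 of its LP4 UMIs. No likeness of *Cxcl9* to another gene can be read from them.

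*Cxcl10* and *Cxcl16* were higher in LP4 in each of the 6 clusters compared. Clusters were made without these genes. Those with at least 50 cells in every library are 5 macrophage-like clusters (A to E) and 1 cluster named dendritic cell-like (F). Cluster A is led by *Egr3* and *Apoe*, B by *Ccnd1* and *Psd3*, C by *Mgll* and *Eef1a2*, D by *Hal* and *Iqgap2*, and E by histone and cell division genes. F was named from *H2-Aa*, *H2-Ab1*, *H2-Eb1* and *Cd74* alone. Of the other dendritic cell markers, *Flt3*, *Zbtb46*, *Ccr7* and *Cd209a* were in 3.18%, 7.27%, 1.82% and 0% of F cells. *Ciita* and *Itgax* were in 22.3% and 30.9%. Of the 9 macrophage markers, 4 were in at least 50% of F cells, the same number as in cluster C. Whether F holds dendritic cells or macrophages was not tested. In Ctrl, *Cxcl10* ranged from 2.40 CPM in C (1.48 to 3.66) and 4.24 CPM in B (2.99 to 5.85) to 62.3 CPM in A (56.7 to 68.3), which held 457 of its 716 UMIs. D and E lay between, at 16.6 and 16.3 CPM with overlapping intervals, and F was at 33.6 CPM (19.2 to 54.5). In LP4 the range was narrower, from 686 CPM in D (670 to 703) to 1289 CPM in A (1269 to 1309). The log2 ratio of LP4 to Ctrl ran from 4.37 in A (4.24 to 4.51) to 8.25 in C (7.63 to 8.94).

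*Cxcl16* differed less between clusters. In Ctrl it ranged from 98.3 CPM in C (91.9 to 105) to 230 CPM in A (219 to 241), and in LP4 from 254 CPM in E (240 to 269) to 509 CPM in F (463 to 559). The log2 ratio of LP4 to Ctrl ran from 0.89 in A (0.81 to 0.97) to 1.47 in C (1.36 to 1.57), and that of LP1 to Ctrl from -0.18 to 0.00. The neutrophil-like cells, 32 in Ctrl, 25 in LP1 and 28 in LP4, did not follow either gene. There *Cxcl10* was at 163, 142 and 154 CPM from 17, 20 and 37 UMIs, with a log2 ratio of LP4 to Ctrl of -0.07 (-0.94 to 0.85), and *Cxcl16* had 1, 0 and 1 UMI.

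**Figure D4:**
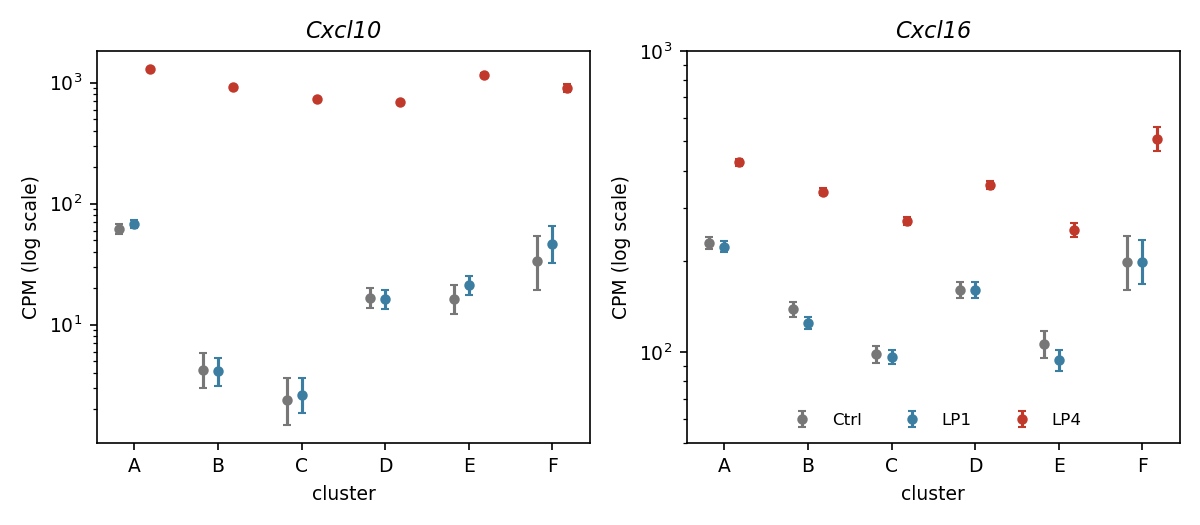
Level of *Cxcl10* (left) and *Cxcl16* (right) in CPM on a log axis in clusters A to F, for Ctrl, LP1 and LP4; points are levels of the summed cells and lines exact Poisson 95% intervals. LP4 lies above Ctrl and LP1 in every cluster, and the Ctrl levels of *Cxcl10* are more spread (2.40 to 62.3 CPM) than its LP4 levels (686 to 1289 CPM).

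Most *Cxcl9* UMIs in LP4 came from a few cells that are not macrophages by their markers. A single one of these cells held 76 of the 135. At a finer resolution of 0.8, 13 cells formed a stromal-like cluster led by *Mgp*, *Col1a2* and *Col3a1*, genes of extracellular matrix; 3 were from Ctrl, 3 from LP1 and 7 from LP4. Of the 7 LP4 cells, 6 held *Cxcl9*, with 76, 7, 5, 2, 2 and 1 UMIs, and 0 to 4 macrophage marker UMIs each, and together they hold 93 of its 135 LP4 UMIs (68.9%). The cell with 76 UMIs also held 146 *Cxcl10* UMIs and 181 UMIs of the 6 stromal markers, and none of the 9 macrophage markers. None of the 3 Ctrl and 3 LP1 stromal-like cells held *Cxcl9* or *Cxcl10*, and the interval for 0 of 3 cells reaches 70.8%. All 7 in LP4 held *Cxcl10*, at 2262 CPM (2016 to 2529) beside 919 CPM in all other LP4 cells. Of their 307 *Cxcl10* UMIs, the cell named above held 146. *Cxcl16* was at 177 CPM (113 to 263) in those 7 cells and at 336 CPM in the others. Of the 3 Ctrl cells, 1 had only 4 stromal marker UMIs, and 2 of the 3 LP1 cells held over 100 macrophage marker UMIs. The LP4 cell without *Cxcl9* was mixed too, with 104 stromal and 108 macrophage marker UMIs, and it held 4 *Cxcl10* UMIs.

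The stromal markers themselves summed to 3.19 CPM in Ctrl, 5.22 CPM in LP1 and 17.4 CPM in LP4, with all 6 seen in each library. What part the number of stromal-like cells has in the *Cxcl9* difference was not tested. Without the stromal-like cells, *Cxcl9* was at 0.686 CPM in LP4 (0.494 to 0.927) and its log2 ratio of LP4 to Ctrl was 2.61 instead of 4.29. The other 14 LP4 cells with *Cxcl9* held 1 to 8 UMIs each, 42 in all, with no stromal marker UMI and 83 to 404 macrophage marker UMIs. Of these 14 cells, 13 also held *Cxcl10*, with a median of 32 UMIs. The 2 Ctrl cells with *Cxcl9* held 2 UMIs each and were macrophage-like. Without the single cell of 76 UMIs the ratio was 3.10, and most remaining LP4 *Cxcl9* UMIs then lay outside the stromal-like cells.

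**Figure D5:**
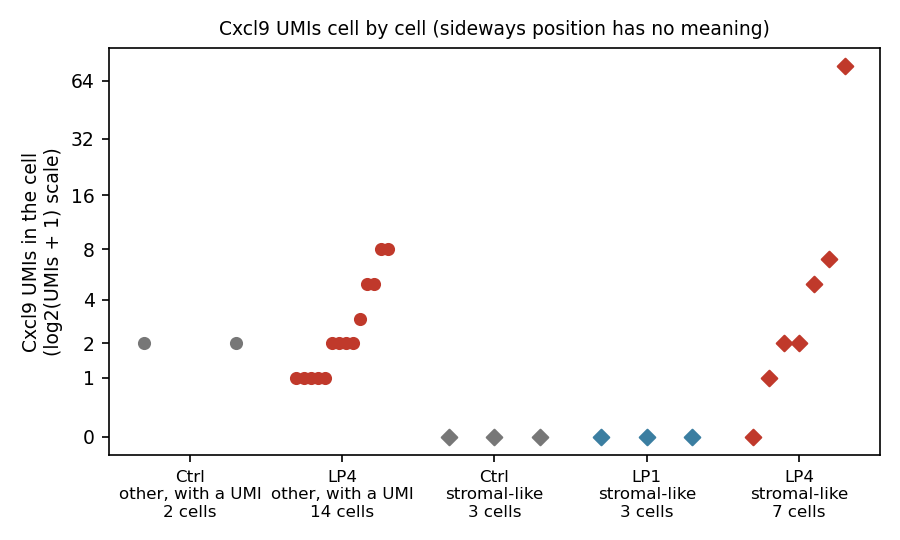
*Cxcl9* UMIs in single cells, on a log2(UMIs + 1) axis, for cells that hold a *Cxcl9* UMI outside the stromal-like cluster (circles; 2 Ctrl and 14 LP4) and for all 13 stromal-like cells (diamonds; 3 Ctrl, 3 LP1 and 7 LP4). The highest cell is an LP4 stromal-like cell with 76 UMIs, the other LP4 cells hold 8 or fewer, and the Ctrl and LP1 stromal-like cells are at 0.

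Few receptor transcripts for these ligands were present in the culture. *Cxcr3* was at 1.04, 0.896 and 0.537 CPM in Ctrl, LP1 and LP4, and *Cxcr6* at 0.308, 0.210 and 0.847 CPM. *Dpp4*, a protease that trims CXCR3 ligands, and *Ackr3*, a decoy receptor of CXCL11, were at or below 0.172 CPM. The sheddases of CXCL16 were expressed throughout, *Adam10* at 75.8, 71.7 and 95.3 CPM and *Adam17* at 211, 230 and 192 CPM, neither reaching a 2-fold difference.

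Genes of interferon signaling and its feedback were higher in LP4 in part. Of 15 JAK, STAT, IRF and feedback genes, all above 10 CPM in a library, 7 were at least 2-fold higher in LP4 than in Ctrl and 1 lower, beside 10.5% and 9.95% of all 8103 genes. Their median log2 ratio was 1.00, beside -0.08 over all 8103. *Stat2*, a factor of type I interferon signaling, was at 29.1, 24.0 and 256 CPM in Ctrl, LP1 and LP4. The feedback inhibitors *Socs1* (log2 ratio 5.75), *Socs3* (3.63) and *Usp18* (3.40) had the largest ratios of the 15, and *Jak2* (2.01) and *Stat3* (1.86) were also past 2-fold. *Tyk2* was just short of it (0.997), and the lower gene was *Irf3* (-1.09), a sensor-activated factor upstream of *Ifnb1*. The other IRF genes of the list, *Irf1*, *Irf5*, *Irf7*, *Irf8* and *Irf9*, were within 2-fold (0.18, 0.29, 0.40, -0.47 and 0.23). With median-of-ratios scaling *Tyk2* passes 2-fold (1.20), as does the receptor chain *Ifngr2* (1.04), and *Irf3* does not (-0.88). In LP1 *Socs1* was also past 2-fold (log2 ratio 1.20), the single gene of the 15 to be so, beside 0.765% of all genes. The receptor chains *Ifnar1*, *Ifnar2*, *Ifngr1* and *Ifngr2* had log2 ratios of 0.55, 0.43, -0.62 and 0.83 in LP4.

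The NF-kB genes and the other CXC chemokines followed other patterns. All 8 NF-kB subunits and inhibitors were within 2-fold between LP4 and Ctrl, with a median log2 ratio of -0.21. Over all genes, 10.5% were at least 2-fold higher and 9.95% lower. Of the 10 targets in the NF-kB score, 4 were at least 2-fold higher (*Cxcl3*, *Ptgs2*, *Il1a* and *Il1b*) and 2 lower (*Cxcl2* and *Tnf*). Of 11 other CXC chemokines, 6 were above 10 CPM in a library, and 2 of the 6 were at least 2-fold higher in LP4 and 1 lower, beside 10.5% and 9.95% of all genes. *Cxcl3*, a CXCR2 ligand that attracts neutrophils, went from 3.98 CPM in Ctrl and 8.44 CPM in LP1 to 509 CPM in LP4, and *Cxcl5*, another, from 2.24 and 1.47 to 128 CPM. *Cxcl2* was lower in LP4, at 4378, 4553 and 1489 CPM. *Cxcl1*, *Cxcl14* and *Pf4* stayed within 2-fold of Ctrl in LP4, with log2 ratios of 0.13, -0.34 and -0.15. In LP4, *Cxcl10* was thus above *Cxcl1*, at 682 CPM, and below *Cxcl2*.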

How the data were processed

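RNA of single BMDMs was measured in 1 library each of Ctrl, LP1 and LP4. Cell Ranger (7.1.0 in the submitters' processing notes) was run by the authors on mm10, and the deposited values are UMI counts per gene and barcode, not normalized. Cells of 3 wells were pooled per condition, so p-values were not computed. The genes and lists described were chosen with earlier results of these data known. The genes named are the 4 chemokines, fixed lists of their pathway and the genes most like each. The result for 1 listed gene is not reported here.

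Kept cells were summed to CPM, with exact Poisson, conditional binomial (log2 ratios) and Clopper-Pearson (shares) intervals at 95%. A gene counted as 2-fold different at a log2 ratio of at least 1, among genes with at least 10 CPM in a library. Clusters came from Leiden clustering (resolution 0.5, 30 principal components, 20 neighbours) of 2000 variable genes that differ by less than 1.5 times between libraries, centred per library, and were named from at least 3 markers. Doublets were not removed in the values reported, since scores were used only in an alternative. Motifs were searched in RefSeq windows. The ratios and thinning were tested on simulated Poisson counts. Such counts lack the uneven spread over cells seen for *Cxcl10* and *Cxcl9*, so the intervals were not tested for it. Tools were Python 3.11.15, scanpy 1.11.5, leidenalg 0.10.2, scipy 1.17.1 and R 4.3.3 with edgeR 4.0.16 (TMM). Alternatives were other cell filters, scalings, cell subsets, depths of thinning and resolutions; leaving out the stromal-like cells, the cell highest in *Cxcl9*, and the neutrophil-like and dendritic cell-like clusters was chosen after seeing the data.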

Additional observations from a re-analysis of the deposited data

How the results depend on the processing

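The ratios of *Cxcl9*, *Cxcl10* and *Cxcl16* in LP4 over Ctrl and of the last 2 in LP4 over LP1 stayed over 2-fold under each alternative run. The LP1 to Ctrl ratio of *Cxcl10* was slightly above 0 with TMM (0.058) and median of ratios (0.062). For *Cxcl10*, the log2 ratio of LP4 to Ctrl was 5.69 with TMM, 5.73 with median-of-ratios scaling, 5.22 as a mean of cell shares and 6.67 without the top 1% of cells by the gene, which also gave -0.32 for LP1 to Ctrl. For *Cxcl16*, LP4 to Ctrl was 1.34 with TMM, 1.38 with median of ratios and 1.22 without the top 1% of cells, and LP1 to Ctrl was -0.048 with TMM and -0.044 with median of ratios. For *Cxcl9*, LP4 to Ctrl was 2.54 in macrophage-like clusters alone and 2.61 without stromal-like cells, and 5.27, still within its counting interval, without the top 5% of doublet scores; without the top 1% of cells by the gene no *Cxcl9* UMI was left, so no ratio was given. The cause of these shifts was not tested beyond what each alternative leaves out.

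Counts of genes at least 2-fold higher and lower fell at a minimum of 50 CPM, where fewer genes are compared, to 33 and 18 (LP1 to Ctrl), 486 and 335 (LP4 to Ctrl) and 427 and 265 (LP4 to LP1), from 62 and 41, 851 and 806, and 696 and 628. Median-of-ratios scaling gave 26 lower genes in LP1. It also moved the split of LP4 to Ctrl calls to 1130 higher and 552 lower, and TMM to 1066 and 586.

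The percent of LP4 cells with a UMI was 39.9, 59.6 and 69.5 for *Cxcl10* at 1000 UMIs, at 4000 UMIs and without thinning, and 29.7, 71.4 and 94.1 for *Cxcl16*; for *Cxcl9* it was 0.428 without thinning against 0.173 at 2000 UMIs. Over clusters, the LP4 to Ctrl log2 ratio ran from 4.41 to 8.03 (*Cxcl10*) and 0.91 to 1.42 (*Cxcl16*) at resolution 0.3, and from 4.52 to 8.20 and 0.71 to 1.51 at 0.8, where both lowest values come from a cluster of 1448 Ctrl but only 54 LP4 cells while another macrophage-like cluster holds 267 Ctrl and 1268 LP4 cells. At 4000 UMIs per cell the highest bin of the interferon score stood over the lowest by 3.45 (*Cxcl10*) and 0.39 (*Cxcl16*), and of the NF-kB score by -0.33 and 0.45. No paired analysis was possible because each condition is 1 library. With 1 library per condition, a difference between cultures cannot be told apart from treatment, and at 0 to 4 UMIs in Ctrl and LP1 the depth limits any *Cxcl9* ratio.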
